A study of Mus musculus with 7 samples.

Results

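The forebrain neuroepithelium of the mouse embryo was examined at embryonic day 8.5 (E8.5), as the cells of the control E8.5 library that carried early forebrain transcription factors. A cell was taken when it had at least 1000 genes detected and at most 10% of its unique molecular identifiers (UMIs, one count per captured transcript) from mitochondrial genes, at least 2 of Six3, Wnt8b, Pax6, Lhx5 and Foxd1 with a UMI, at least 1 UMI of Otx2, and no UMI of Shh, Sox10 or Twist1. Cells with Mab21l2, used here as a midbrain gene, but without Six3 were left out. This gave 204 cells of the 5874 kept cells of the library, or 3.47% (exact binomial 95% interval 3.02 to 3.97), out of 65862 barcodes in the series. The series profiled the Wnt1-Cre lineage in 7 droplet libraries of sorted EGFP-positive, DAPI-negative living cells from embryos of the Swiss-Webster strain in the labels (a mixed Swiss-Webster background in the methods), labelled as neural crest cells, and asked how neural crest of the pharyngeal region depends on Tbx1. The E8.5 embryos were Wnt1-Cre/+;ROSA-EGFPf/+, had no Tbx1 mutation or treatment named in their labels, and the anterior part of the embryo with the head and heart was dissected and pooled over embryos. The other 6 libraries, control or Tbx1null at E9.5 and E10.5, were dissected without the head. In these mice a Cre recombinase under Wnt1 regulatory sequence switches on EGFP permanently in the cells that used it and in their descendants, and the sort was for EGFP, so the cells below were collected as Wnt1-Cre lineage. The EGFP transcript was not among the features of the files used here, so the reporter was not checked in the forebrain cells. There was 1 library at E8.5, so no difference below has a replicate check, no test was made, and intervals cover counting error only.

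At this stage the neural plate closes into a tube whose front end becomes the forebrain, divided into the telencephalon, the eye field and the diencephalon, with the midbrain and hindbrain behind it. Six3, Hesx1 and Rax act in the most anterior neural plate, where Six3 and Hesx1 keep posteriorising Wnt signals out. En1, Wnt1 and the Irx genes mark more posterior or boundary territory. Dorsal cells respond to BMP and Wnt signals and express Msx and Zic genes, and ventral cells respond to Sonic hedgehog and express Nkx2 genes and Foxa2.

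The 204 forebrain cells held 4450273 UMIs, with a median of 20446 per cell (range 6161 to 44792) and a median of 3952.5 genes. They were set beside 3 groups of the same library: 605 midbrain cells (Otx2 and Mab21l2 with a UMI, Six3, Shh, Sox10 and Twist1 at 0, fewer than 2 of the 5 forebrain genes; median 20877 UMIs), 75 hindbrain cells (Sox2 and at least 2 of 7 Hox genes with a UMI, Otx2, Shh, Sox10 and Twist1 at 0; median 18374 UMIs) and 2210 neural crest cells (Sox10 and Twist1 with a UMI; median 26566 UMIs). The last served as the background for neural genes, since free RNA gives a low count in cells that do not express a gene. Levels are counts per 1000000 of the summed UMIs of a group (CPM) with exact Poisson 95% intervals. Shares of cells called thinned were taken after thinning each cell to 5000 UMIs. All 204 forebrain cells reached this depth, so 0 cells were left out there, 2 of the midbrain cells, 1 of the hindbrain cells and 0 of the crest cells. All other shares and counts of cells with a gene are at full depth, which differs between the groups. The E8.5 library shared 0 to 2 barcodes with each other library and none of them was a forebrain cell. No Xist UMI was found in the forebrain cells and 151 of them held a UMI of a Y-linked gene, so the pooled embryos could not be told apart by sex, and the embryo each cell came from is not known.

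The genes of the rule describe how the cells were chosen and are no finding. Pax6, a regulator of eye and forebrain progenitors, had a UMI in 85.3% of the forebrain cells, Lhx5 in 66.7%, Wnt8b in 57.4%, Six3 in 38.7% and Foxd1 in 35.3%. In the neural crest cells these shares were between 0.498% and 2.62%. Pax6 was also seen in 41.3% of the hindbrain cells, where the others were in 0% to 4.00%. In the midbrain cells, whose rule asked for fewer than 2 of the 5 genes and no Six3, Wnt8b had the highest share, 7.60%. Of the 204 cells, 87 held exactly 2 of the 5 genes, 72 held 3, 37 held 4 and 8 held all 5, and Wnt8b with Pax6 alone was the most frequent combination, in 43 cells. Otx2, the head transcription factor shared by forebrain and midbrain, stood at 233 CPM in the forebrain cells and 226 CPM in the midbrain cells. The 87 cells at the threshold of 2 genes carried Fezf1 at 18.1 CPM and En1 at 27.6 CPM, against 5.24 and 185 CPM in the 105 cells just outside it with 1 gene. The requirement of no Mab21l2 without Six3 kept out 34 cells, the requirement of no Shh, Sox10 or Twist1 UMI kept out 62, and the requirement of Otx2 kept out 17. The last 17 held Hesx1 at 49.1 CPM and Emx2 at 49.1 CPM, above the 38.9 and 34.8 CPM inside the rule. The 62 held Hesx1 at 68.2 and Six3 at 78.8 CPM, above the 38.9 and 34.6 CPM inside, but Fezf1 at 14.0 and Emx2 at 16.2 CPM, below the 29.7 and 34.8 CPM inside. The same rule found 0 cells in 4 of the other 6 libraries and 1 cell in each of the other two, where Otx2 was detected in 1.05% to 3.56% of kept cells against 29.4% at E8.5.

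Markers of other cell types were read next. For crest genes a low level follows in part from the rule, since the forebrain cells had to lack Sox10 and Twist1 and the crest cells to hold both. Of 13 crest genes, Sox9 stood at 41.6 CPM in the forebrain cells and 66.3 CPM in the crest cells, but the other 12 were between 0.225 and 13.9 CPM, with Foxd3 and Erbb3 at 1 UMI each. Snai1, Ets1 and Alx1, at 80.5, 57.3 and 85.1 CPM in the crest cells, were at 2.47, 0.899 and 1.35 CPM in the forebrain cells. Endothelial genes were at 0 UMIs, blood genes summed to 0.225 CPM and heart muscle genes to 1.35 CPM. Of 9 genes of surface ectoderm and placode, Krt18 was at 36.6 CPM (95% interval 31.2 to 42.7) against 19.5 CPM in the midbrain cells, while Epcam, an epithelial adhesion molecule, was at 0.449 CPM. The 12 Hox and other hindbrain genes summed to 2.70 CPM against 598 CPM in the hindbrain cells, whose rule used 7 of them, and 7 of the 12 were at 0 UMIs. When each cell was described by 30 principal components of 2000 variable genes, with the rule genes left out, 59.5% of the 20 nearest cells of a forebrain cell were forebrain cells, against their share of 3.47% of the library, and 9.29% were midbrain cells. None was a hindbrain cell, 0.956% were crest cells, and 6 of the 204 had no forebrain neighbour. With 10 components in place of 30, 42.7% were forebrain cells, 23.7% midbrain cells and 0.123% hindbrain cells.

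**Figure D1:**
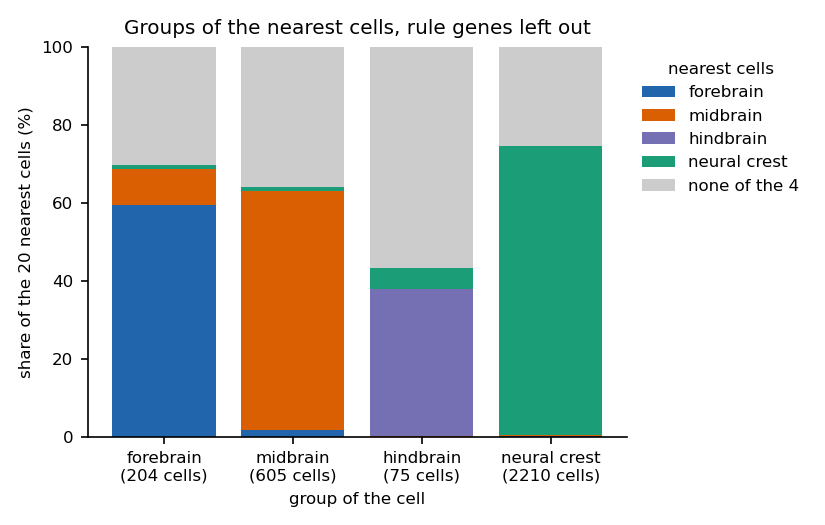
Share (%) of the 20 nearest cells that belonged to each group, averaged over the cells of the forebrain, midbrain, hindbrain and neural crest groups of the E8.5 library, with rule genes left out of the distances. Of the nearest cells of the 204 forebrain cells, 59.5% were forebrain cells (blue) and 30.3% belonged to none of the 4 groups (grey).

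Against the midbrain cells, 8170 genes reached a mean of 5 CPM over both groups, without the rule genes, and 83 of them were past 2-fold higher in the forebrain cells (1.02% of the genes) and 92 past 2-fold lower (1.13%). The median log2 ratio over the 8170 genes was 0.00. Genes of the telencephalon and of the anterior neural ridge, the signalling border at the front of the plate, were among the higher ones: 8 of the 9 listed genes that reached the minimum were higher, among them Emx2, Hesx1, Fezf1, Fezf2, Nr2e1, Dmrta2 and Lhx2, and the median log2 ratio of the 9 was 5.60, with genes absent from the midbrain cells at their bound. All 8 were below 5 CPM in the midbrain cells and reached the minimum through the forebrain cells, and the midbrain cells had been required to lack Six3, so the count describes these cells and supports nothing further. The list summed to 231 CPM in the forebrain cells, 45.4 CPM in the midbrain cells, 14.3 CPM in the hindbrain cells and 6.74 CPM in the crest cells. At least 1 of its UMIs was held by 57.4% of the thinned forebrain cells. The shares were 17.7% of the thinned midbrain cells, 6.76% of the thinned hindbrain cells and 2.40% of the thinned crest cells.

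Hesx1, a repressor needed for forebrain and pituitary formation (chromosome 14, 26994416 to 27002329 of GRCm38), stood at 38.9 CPM (95% interval 33.3 to 45.1) and at 0.379 CPM in the midbrain cells. Its UMIs were concentrated, with 46 cells holding any and a maximum of 14 in a cell. Emx2, a regulator of the cortical primordium (chromosome 19, 59458372 to 59465357), was at 34.8 CPM (29.6 to 40.8) against 0.683 CPM and was spread over 84 cells with at most 6 UMIs in one. Fezf1 and Fezf2, zinc finger repressors of the anterior plate, were at 29.7 CPM (24.8 to 35.2) and 27.6 CPM (23.0 to 33.0). Neither had a UMI in the midbrain cells, so Fezf1 was at least 130-fold and Fezf2 at least 121-fold higher against a floor of 3 UMIs over the group. Lhx2, needed for the eye field and cortex, was at 19.1 CPM against 0.607 CPM, a 29.8-fold ratio (15.3 to 75.3). Sp8, a zinc finger factor of the neural ridge, was the exception of the list, at 36.4 CPM in the forebrain cells and 39.4 CPM in the midbrain cells (ratio 0.925, 0.769 to 1.10). Emx1 had 19 UMIs in 17 cells.

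Of the 9 genes listed for the eye field and optic vesicle, Rax, which the eye field requires, was the only one that reached the minimum. It was at 20.9 CPM (16.9 to 25.6) in 41 cells with up to 8 UMIs, and with no UMI in the midbrain cells it was at least 91.8-fold higher. Six6 had 23 UMIs in 4 cells, 1 of them with 12. Vax1, Vax2 and Tbx5, genes of the optic stalk, ventral retina and dorsal optic cup, were at 0 UMIs in the 204 cells, where 3 UMIs would be 0.674 CPM. Of the 11 genes for diencephalon and pretectum, 8 reached the minimum, and Barhl2, Tcf7l2 and Olig2 were higher while Irx1, Irx2, Irx3 and Irx5 were lower. Barhl2 and Olig2 were below 5 CPM in the midbrain cells and reached the minimum through the forebrain cells, so these counts are a description. Barhl2, a homeobox gene of the prethalamus and thalamus, was at 24.7 CPM (20.3 to 29.8) in 67 cells against 0.834 CPM, and Olig2 was at 16.9 CPM (13.3 to 21.1) in 35 cells against 0.228 CPM. Tcf7l2, a Wnt effector of the thalamic region, was 3.25-fold higher at 52.8 CPM. Irx3 was at 8.54 CPM against 84.7 CPM (9.80-fold lower; log2 ratio -3.29, and -4.30 in cells with at least 3 of the 5 forebrain genes). Irx5 went from a log2 ratio of -2.90 to -3.75 in those cells and -3.98 in cells chosen after thinning, and Irx2 from -2.43 to -1.82 after thinning. Irx1 was at 28.5 CPM in 70 cells against 68.5 CPM.

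Of 13 midbrain and isthmus genes, 9 reached the minimum and 6 were lower in the forebrain cells (En1, En2, Pax5, Pax8, Wnt1 and Trh), while Barhl1 was higher at 19.8 CPM (15.9 to 24.4) against 1.06 CPM. En2, Pax5 and Pax8 were at 1.80, 4.49 and 1.35 CPM in the forebrain cells and reached the minimum through the midbrain cells, and Barhl1 through the forebrain cells, so the counts support nothing further. En1, the engrailed factor of the midbrain and isthmus (chromosome 1, 120602418 to 120607992), was at 15.1 CPM (11.7 to 19.1) against 163 CPM, 10.7-fold lower. Its UMIs came from 11 cells, and 5 cells held 76.1% of them. With at least 3 of the 5 forebrain genes its log2 ratio was -4.56 in place of -3.43. Trh, the precursor of thyrotropin-releasing hormone, was likewise 8.85-fold lower at 10.8 CPM, with 77.1% of its UMIs in 5 cells, and its log2 ratio of -3.15 became -4.49 with at least 3 genes and -5.11 in cells chosen after thinning. Wnt1 itself, whose regulatory sequence drives the Cre, was at 17.5 CPM (13.9 to 21.9) against 80.2 CPM in the midbrain cells, 142 CPM in the hindbrain cells and 6.98 CPM in the crest cells, and 36 of the 204 forebrain cells held a Wnt1 UMI, with 38.5% of them in 5 cells and 14 in 1 cell. En1 or Wnt1 was seen in 39 cells, of which 31 also held Barhl1, Barhl2, Irx1 or Msx1 and 10 held Rax, Hesx1, Fezf1 or Lhx2.

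**Figure D2:**
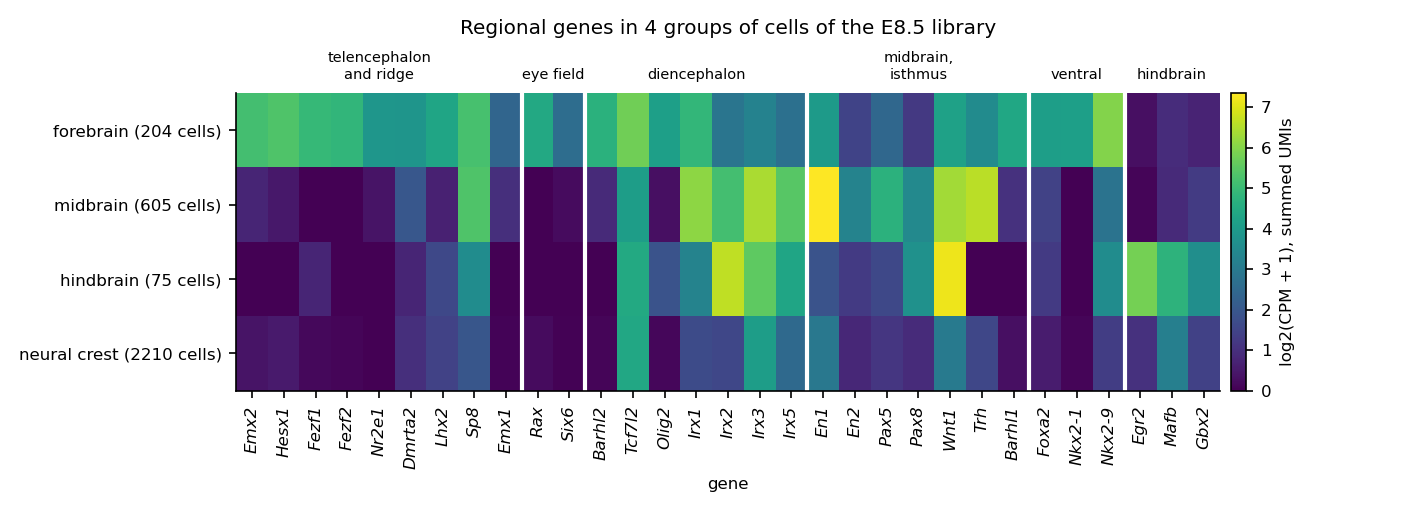
Colour gives log2(CPM + 1) of the summed UMIs for regional genes (columns, grouped by the list they come from) in the 204 forebrain, 605 midbrain, 75 hindbrain and 2210 neural crest cells (rows). The telencephalon genes from Emx2 to Lhx2 are brightest in the forebrain row, and Sp8 is bright in both forebrain and midbrain rows.

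By ratio alone, the leading genes at a mean of at least 20 CPM were Hopx, Nkx2-9 and Epha7 on the higher side and En1, Hes3 and Irx3 on the lower side. Hopx, a small homeodomain protein that does not bind DNA (chromosome 5, 77086988 to 77115121), was at 131 CPM (120 to 142) in the forebrain cells against 5.23 CPM in the midbrain cells and 6.11 CPM in the hindbrain cells, a 24.8-fold ratio to the midbrain cells (19.4 to 32.5). It was widespread, with a UMI in 156 of the 204 cells, and 44.6% of the thinned forebrain cells held one against 2.65% of the thinned midbrain cells. Hopx was not particular to the forebrain within the library, since the crest cells stood at 70.0 CPM. Epha7, a receptor for ephrins, was 8.55-fold higher (6.71 to 11.1) at 57.3 CPM, in 126 cells, and the cadherin Cdh6 was 4.69-fold higher at 34.6 CPM. Epha4 and Ephb1 were higher with it, and the ligand Efna2 was 4.04-fold lower at 33.5 CPM against 136 CPM. Pcsk1n, Gpc3, Sox9, Meg3, Igfbp2, Eras and Amot were between 2.68-fold and 3.75-fold higher, of which Igfbp2 reached 309 CPM in 195 cells and the maternally expressed noncoding RNA Meg3 302 CPM in 180 cells.

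The Hes genes, repressors that act in Notch signalling and early progenitors, differed in opposite directions. Hes1 was at 104 CPM (94.8 to 114) in the forebrain cells and 28.2 CPM in the midbrain cells, 3.69-fold higher. Hes5 was at 71.0 CPM (63.4 to 79.3) against 225 CPM, and Hes3 at 18.7 CPM (14.9 to 23.1) against 195 CPM, 3.17-fold and 10.4-fold lower, and the log2 ratio of Hes5 was -2.40 with at least 3 of the 5 forebrain genes in place of -1.66. Sox2, the pan-neural progenitor factor, was at 144 CPM (133 to 155) and 145 CPM. None of the 24 listed genes of S phase and G2/M phase was past 2-fold, with summed levels of 2185 and 1797 CPM in the forebrain cells and 2147 and 1796 CPM in the midbrain cells. The 12 neuronal and proneural genes summed to 254 CPM in the forebrain cells, 208 CPM in the midbrain cells, 141 CPM in the hindbrain cells and 85.3 CPM in the crest cells, of which Tubb3, a neuronal tubulin, gave 150, 83.0, 59.8 and 59.5 CPM.

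**Figure D3:**
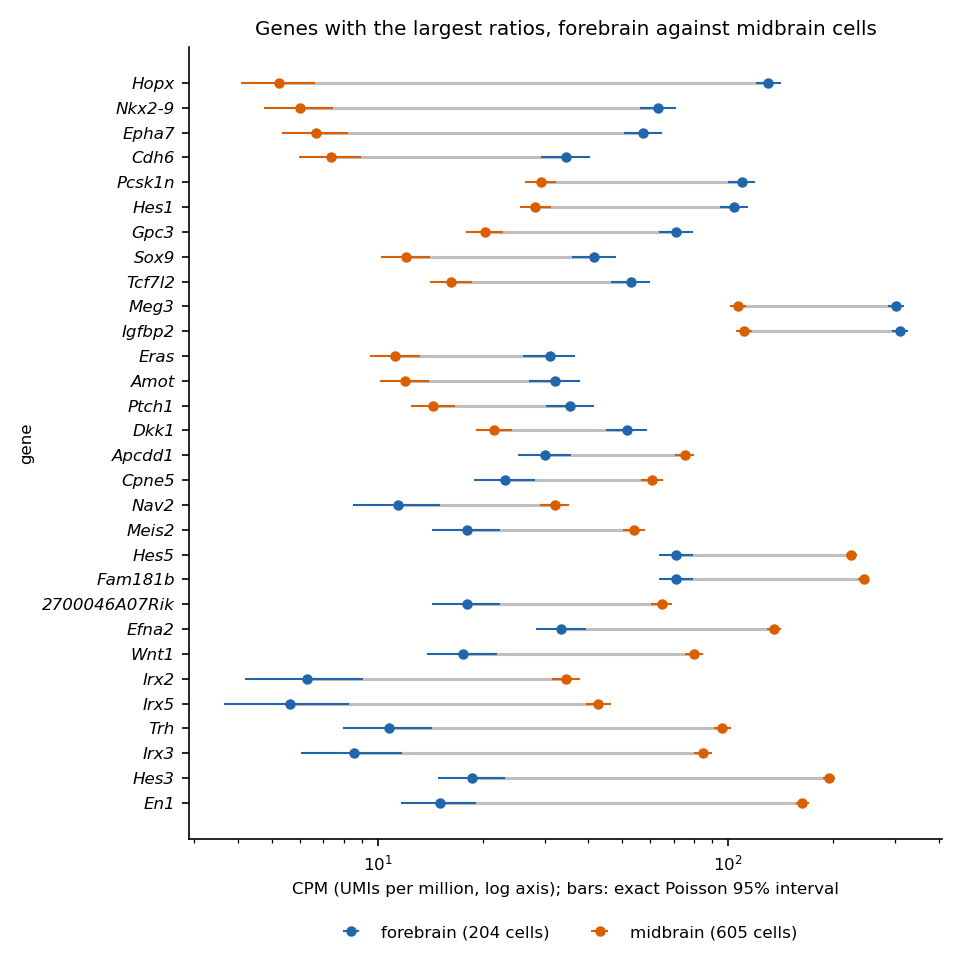
CPM (log axis) with exact Poisson 95% intervals in the 204 forebrain cells (blue) and 605 midbrain cells (orange) for the 15 genes with the largest ratio in each direction at a mean of at least 20 CPM. Hopx stands at 131 against 5.23 CPM at the top and En1 at 15.1 against 163 CPM at the bottom.

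Wnt signalling genes were read by their place in the pathway. Over all 8170 genes, 1.02% were past 2-fold higher in the forebrain cells and 1.13% past 2-fold lower. Of 10 Wnt ligands, 5 reached the minimum: Wnt7b was 2.96-fold higher at 17.1 CPM, and Wnt1 and Wnt4 were lower. Of 12 receptor genes, 6 reached it, and Fzd2 was higher at 48.1 CPM against 23.1 CPM and Fzd10 lower at 5.62 CPM against 15.3 CPM. Of 10 secreted or membrane antagonists, 6 reached it and 2 were higher. Wnt4 was below 5 CPM in the forebrain cells and reached the minimum through the midbrain cells. Shisa2 was below 5 CPM in the midbrain cells and reached it through the forebrain cells, so these counts are a description. Dkk1, which blocks the Lrp5/6 coreceptors, was at 51.5 CPM (45.0 to 58.6) against 21.5 CPM, with 32.8% of its UMIs in 5 cells and a log2 ratio of 1.26 that became 2.03 in cells chosen after thinning. Shisa2, which retains Frizzled and FGF receptors inside the cell, was at 31.0 CPM (26.1 to 36.6) against 4.55 CPM in 67 cells. The 8 genes listed as transcribed in response to Wnt/β-catenin had 6 at the minimum with a median log2 ratio of -0.88. Sp5 was at 42.5 CPM (36.6 to 49.0) against 86.5 CPM, 2.03-fold lower, while Axin2 at 24.5 against 47.6 CPM and Nkd1 at 32.8 against 65.4 CPM lay just inside 2-fold. In the 39 forebrain cells with a Foxa2 or Nkx2-1 UMI Sp5 was at 8.33 CPM. The other 165 stood at 50.4 CPM, less than 2-fold below the midbrain cells.

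The promoters of Sp5 and Dkk1 are printed because the first was the listed Wnt target past 2-fold and Dkk1 the listed antagonist that is itself often a Wnt target. The windows run from 250 bases before to 50 bases after the RefSeq start on GRCm38.p6, 5′ to 3′ on the strand of the gene, with the letters CTTTGA or its reverse complement TCAAAG, the core read by TCF/LEF factors, in capitals. The Sp5 window is chr2:70474673-70474972 on the plus strand and the Dkk1 window chr19:30549447-30549746 on the minus strand; both cover the start of the gene and its upstream sequence.
Sp5: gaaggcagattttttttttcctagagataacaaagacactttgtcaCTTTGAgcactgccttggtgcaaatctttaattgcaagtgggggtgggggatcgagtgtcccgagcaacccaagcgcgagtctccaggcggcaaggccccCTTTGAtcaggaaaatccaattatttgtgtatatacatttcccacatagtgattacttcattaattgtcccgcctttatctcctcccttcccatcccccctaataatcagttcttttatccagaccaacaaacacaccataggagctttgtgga
Dkk1: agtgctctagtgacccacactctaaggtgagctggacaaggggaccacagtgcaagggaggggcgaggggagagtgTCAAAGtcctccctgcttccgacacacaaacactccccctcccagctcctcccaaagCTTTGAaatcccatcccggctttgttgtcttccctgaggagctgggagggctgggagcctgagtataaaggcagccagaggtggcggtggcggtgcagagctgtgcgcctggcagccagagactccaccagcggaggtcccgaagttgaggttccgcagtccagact
The Sp5 window held CTTTGA 2 times, 1 of them within the longer CTTTGAT, and the Dkk1 window held the letters once on each strand. Of the 8 Wnt target genes and Dkk1, 7 had a promoter in the RefSeq table, with 12 windows, and 3 windows held the letters, against 16.0% of all 32851 promoter windows (3.73% for CTTTGAT). These matches are letters in a window and are not shown to be bound.

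Genes of other pathways showed few members past 2-fold. Of 9 hedgehog pathway genes, 6 reached the minimum, and Ptch1, the Shh receptor whose transcript rises when the pathway is active, was 2.47-fold higher (1.98 to 3.06) at 35.5 CPM. The 39 forebrain cells with a Foxa2 or Nkx2-1 UMI carried this, at 114 CPM, and the other 165 stood at 17.2 CPM, near the 14.4 CPM of the midbrain cells. Nkx2-9 was likewise at 304 CPM in the 39 cells and 7.20 CPM in the others, against 5.99 CPM in the midbrain cells. Of 11 FGF target genes, 7 reached the minimum and Spry2 and Il17rd were lower, at 5.39 against 12.0 CPM and 7.42 against 18.6 CPM. Of 13 BMP pathway genes, 6 reached it and Id1 was lower at 160 CPM against 322 CPM. Id1 was at 19.1 CPM in the 39 cells with a Foxa2 or Nkx2-1 UMI. In the other 165 it was at 192 CPM, less than 2-fold below the midbrain cells. Crabp1, a retinoic acid-binding protein, was 2.41-fold lower at 110 against 265 CPM.

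The comparison with the 75 hindbrain cells rested on 1472070 UMIs in the smaller group, so 1 UMI there was worth 0.679 CPM. Of 8233 genes tested, 256 were past 2-fold higher in the forebrain cells (3.11%) and 317 past 2-fold lower (3.85%), and with a minimum of 20 CPM the counts were 59 and 56 of 4483. Several genes of the higher side were high in the midbrain cells too. Tal2, a basic helix-loop-helix factor of the midbrain and diencephalon, was at 42.9 CPM with no UMI in the hindbrain cells, at least 21.1-fold higher, and stood at 83.0 CPM in the midbrain cells. Otx1, the paralogue of Otx2, was at 41.8 CPM with 1 UMI in the hindbrain cells and 39.1 CPM in the midbrain cells. Lmo1 and Pcsk1n also had 1 UMI in the hindbrain cells, at 51.5 and 109 CPM in the forebrain cells. Foxb1, a forkhead gene of the diencephalon and midbrain, was 6.05-fold higher at 63.6 CPM.

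The lower side included hindbrain and dorsal genes. Olig3, of the dorsal hindbrain, had no UMI in the forebrain cells against 42.8 CPM, at least 63.5-fold lower, and the rhombomere factor Egr2 had 1 UMI against 55.7 CPM. Hoxb3os, the antisense partner of Hoxb3 in the hindbrain rule, was at 0 UMIs and at least 121-fold lower. Crabp1 was at 110 CPM against 5085 CPM (46.2-fold lower). Meis1 and Meis2, Hox cofactors, were 15.4-fold and 12.3-fold lower, and the log2 ratio of Meis1 was -5.11 with at least 3 of the 5 forebrain genes and -5.28 in cells chosen after thinning, in place of -3.95. Of 14 tested genes of the dorsal neural tube and roof plate 12 were lower, with Rspo1 higher. Of these 12, Msx3, Lmx1a, Zic4, Wnt3a and Pax7 were below 5 CPM in the forebrain cells and reached the minimum through the hindbrain cells, so the count is a description and supports nothing further.

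Levels within the 204 cells were described by Six3. Cells with a Six3 UMI (79, median 22255 UMIs) and cells without one (125, median 20263 UMIs) were compared on all other genes; the division used a rule gene of low level, at most 7 UMIs in a cell, so cells without a Six3 UMI can still express it. The rule also asked different things of each side: cells without Six3 had to hold 2 of the other 4 forebrain genes and to lack Mab21l2, while Six3 cells needed 1 other and could hold Mab21l2. Wnt8b was seen in 67.2% of the cells without Six3 and 41.8% of the Six3 cells, and Pax6 in 91.2% and 75.9%. Genes found with Wnt8b, such as Msx1 (53 of 62 cells) and Pax3 (44 of 49), are therefore set in part by the selection, and the values below are a description. Of 8137 genes tested, 104 were past 2-fold higher in the Six3 cells (1.28%) and 107 past 2-fold lower (1.31%), and at a mean of at least 20 CPM 10 and 9 of 4500 were. The higher side held anterior and ventral genes: 5 of the 9 tested telencephalon genes and 3 of the 5 tested floor plate and ventral genes (Nkx2-1, Nkx2-9 and Nkx6-1) were past 2-fold. Nkx2-9 was at 91.7 against 43.2 CPM and Nkx2-1 at 29.5 against 7.64 CPM. Among the anterior genes were Rax at 43.1 against 5.35 CPM (log2 ratio 2.97, 95% counting interval 2.18 to 3.95), Lhx2 at 37.7 against 6.11 CPM, Shisa2 at 60.0 against 10.7 CPM, Fezf1 at 52.9 against 13.4 CPM and Hesx1 at 69.3 against 17.6 CPM. Sox21 and Fezf2 were 2.72-fold and 2.64-fold higher. Emx2 did not follow them, at 36.0 against 34.0 CPM. Exoc1 and Pbld1, also past 2-fold, had 54.9% and 53.4% of their UMIs in 5 cells, and Exoc1 turned to a log2 ratio of -0.0637 when Six3 cells had to hold at least 2 Six3 UMIs. With at least 2 Six3 UMIs, held by 30 cells, Hesx1 went from a log2 ratio of 1.97 to 2.57 and Nkx2-9 from 1.08 to 1.92. Six3 was held by 20 of the 34 cells with Foxa2 and 15 of the 21 with Nkx2-1, against 79 of all 204. The 39 cells with either held Hesx1 at 166 and Nkx2-9 at 304 CPM, against 9.42 and 7.20 CPM in the others. Whether the differences of Hesx1 and Nkx2-9 follow Six3 or this set was not tested.

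The lower side included 5 of the 9 tested dorsal genes and 5 of the 8 tested diencephalon and pretectum genes. Irx2, Irx3 and Irx5 were below 5 CPM in the Six3 cells and reached the minimum through the cells without Six3. The counts are therefore a description. Msx1, a BMP-responsive homeobox gene, was at 14.7 CPM in the Six3 cells and 62.3 CPM in the others (log2 ratio -2.06, -2.72 to -1.49), and Pax3, of the dorsal neural tube, at 9.82 against 35.9 CPM. Irx1 was at 13.6 against 39.0 CPM, Barhl2 at 14.7 against 31.7 CPM, Zic1 at 13.6 against 32.1 CPM and Sp5 at 20.7 against 57.7 CPM. With at least 2 Six3 UMIs, held by 30 cells, the log2 ratio was -4.08 for Msx1. It was -2.44 for Pax3 (-1.84 with at least 1 UMI), -2.56 for Irx1 (-1.49), -1.74 for Barhl2 (-1.09) and -2.21 for Sp5 (-1.46). None of the 30 cells held more than 1 UMI of Msx1, 2 of Pax3 or Irx1, or 3 of Barhl2. The ratios of these genes at that threshold therefore rest on few counts and show no trend with the Six3 level. En1 was at 4.91 against 22.2 CPM, but 8 of the 11 cells with a UMI were without Six3 and few cells carried the value. Sox2 was at 151 against 138 CPM. Wnt1 was at 18.6 against 16.8 CPM, but 1 Six3 cell held 14 of the 34 UMIs of the Six3 cells. Across the 204 cells, the Pearson correlation of the depth-scaled level with that of Six3 was highest among 4489 genes for Shisa2 (0.41), Sox21 (0.40), Fezf1 (0.40), Rax (0.39) and Hesx1 (0.39); the cells share a library and counts are sparse, so this is a description.

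**Figure D4:**
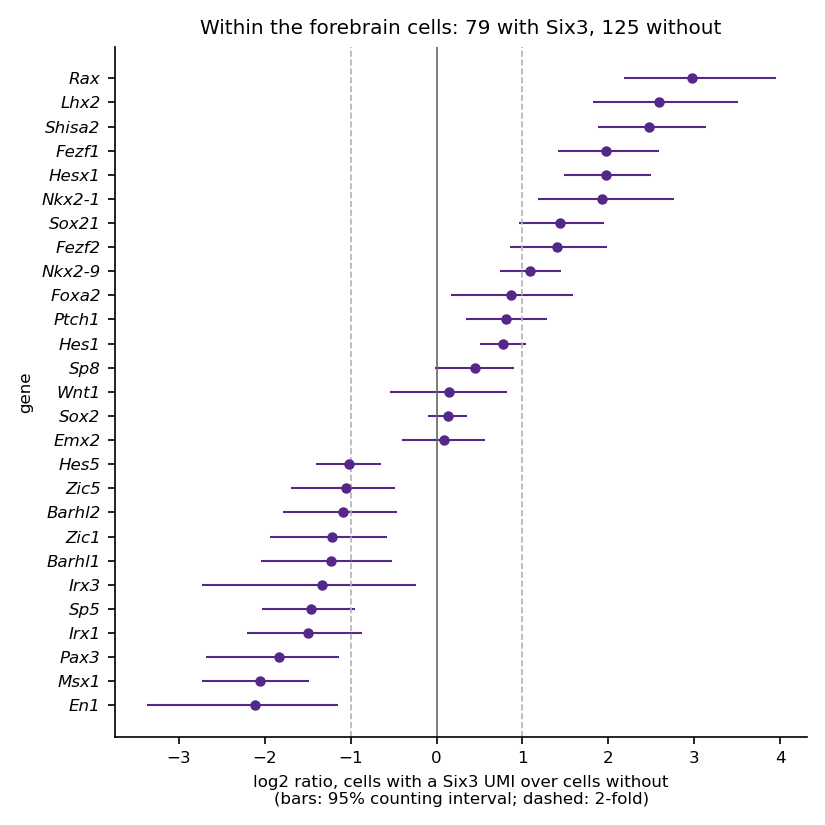
Log2 ratio of the summed level in the 79 forebrain cells with a Six3 UMI over the 125 without one, with 95% counting intervals, for regional and signalling genes; dashed lines mark 2-fold. Rax, Lhx2 and Shisa2 lie to the right, Sox2 and Emx2 near 0, and Msx1 and En1 to the left.

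Cells with each of these genes were counted. Rax, Hesx1, Fezf1 or Lhx2 was seen in 104 cells and Barhl1, Barhl2, Irx1 or Msx1 in 132, with 45 cells holding both, 59 the first set only, 87 the second only and 13 neither. For pairs of genes, the count of cells with both is given beside the count that the product of their shares would give, as a description with no test. Hesx1 and Msx1, seen in 46 and 62 cells, were not found in the same cell, where the product was 14.0 cells. Msx1 and Pax3, the latter in 49 cells, were together in 37 cells (product 14.9), and Hesx1 and Shisa2, the latter in 67 cells, in 34 (15.1). The counts of Lhx2 and Emx2 with Msx1 and Pax3 were near the product. Lhx2, seen in 43 cells, shared 12 cells with Msx1 (13.1) and 12 with Pax3 (10.3). Emx2, seen in 84, shared 26 with Msx1 (25.5) and 21 with Pax3 (20.2). With other genes Lhx2 was far from the product: 1 cell with Barhl1 (9.3), 5 with Irx1 (14.75), 18 with Rax (8.64) and 27 with Fezf1 (15.2). These sets were named after their values were seen.

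A set of cells was taken by ventral genes. Foxa2, the floor plate and ventral midline factor, or Nkx2-1, the hypothalamic and ventral telencephalic factor, had a UMI in 39 cells, although cells with Shh had been left out, and 36 of the 39 held Rax, Hesx1, Fezf1 or Lhx2 while 13 held Barhl1, Barhl2, Irx1 or Msx1. All 21 cells with Nkx2-1 also held Nkx2-9, which was seen in 43 of the 204. The set was chosen after its values were seen, and its depth, a median of 20200 UMIs, was near the 20547 of the other 165 cells. In the 39 cells Nkx2-9 was at 304 CPM against 7.20 CPM in the others, Hesx1 at 166 against 9.42 CPM and Ptch1 at 114 against 17.2 CPM (log2 ratio 2.73, 2.26 to 3.22). Gli3, the hedgehog pathway repressor, was at 9.53 against 49.9 CPM, and Msx1 had no UMI in the 39 cells against 52.6 CPM. Pax3 and Zic1 had 1 UMI each there, against 30.7 and 29.9 CPM. Of the telencephalon list, Fezf1 and Fezf2 were higher in the 39 cells, at 60.7 against 22.4 CPM and 64.3 against 19.1 CPM, and these were lower: Emx2 at 15.5 against 39.3 CPM, Sp8 at 10.7 against 42.4 CPM, Dmrta2 at 1.19 against 16.1 CPM and Emx1 at 0 against 5.26 CPM. Sox21, a progenitor gene outside the list, was at 69.1 against 28.3 CPM. The genes of the rule were divided as well, as a description: Foxd1 was at 143 CPM in the 39 cells and 21.3 CPM in the others, Wnt8b at 5.95 and 87.2 CPM, and Pax6 at 52.4 and 202 CPM, and Otx2 was at 224 and 236 CPM.

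**Figure D5:**
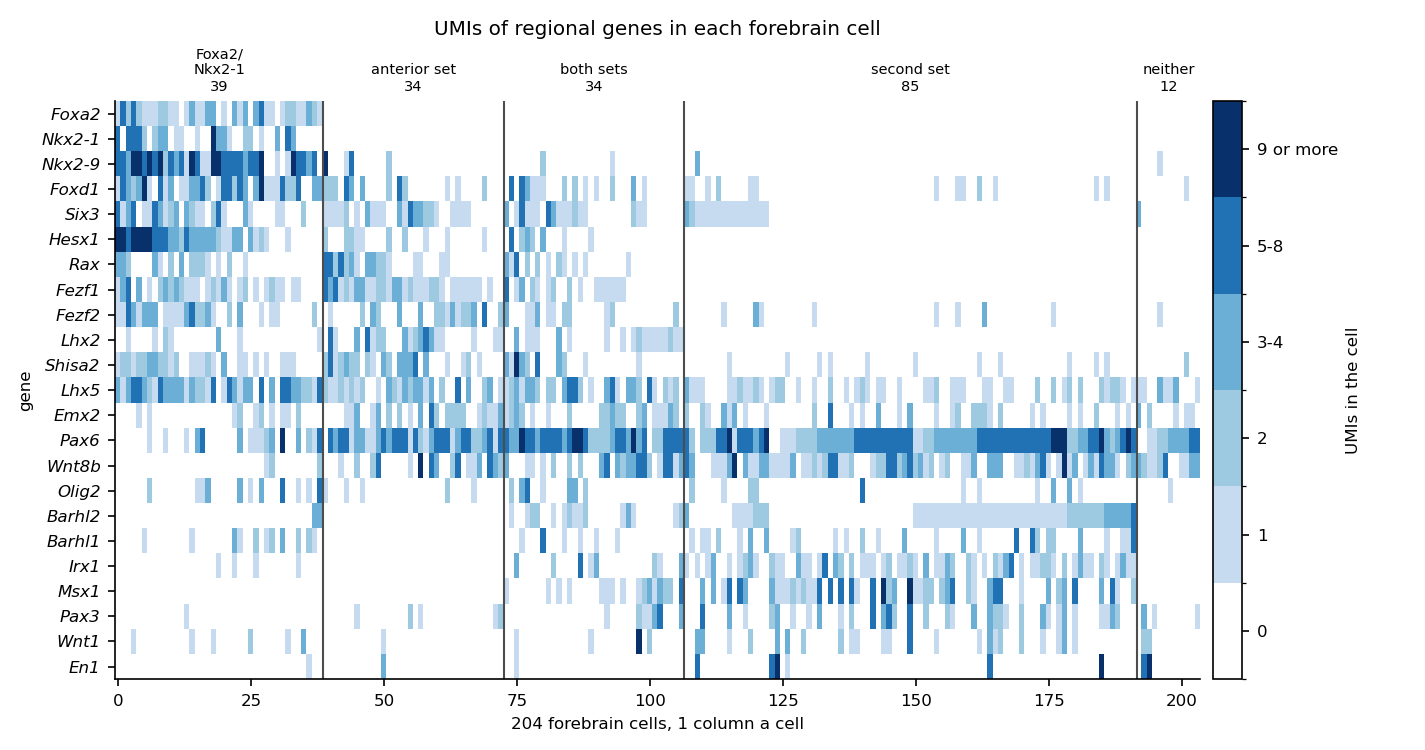
UMIs (colour) of regional genes (rows) in each of the 204 forebrain cells (columns), ordered into cells with Foxa2 or Nkx2-1 (39), then cells with Rax, Hesx1, Fezf1 or Lhx2 only (anterior set, 34), with both sets (34), with Barhl1, Barhl2, Irx1 or Msx1 only (second set, 85), and with neither (12). Nkx2-9, Foxd1 and Hesx1 fill the left block, where Wnt8b and Msx1 are nearly empty, and En1 UMIs sit in a few cells to the right.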

How the data were processed

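The authors deposited UMI counts per gene and cell for 7 droplet libraries, unnormalised, made with Cell Ranger 6.0.1 on mm10 according to the submitters' processing notes; the E8.5 library held 5987 barcodes and 32285 genes, and 5874 cells passed the minimum of 1000 genes and the limit of 10% mitochondrial UMIs. From these counts, UMIs were summed per group and scaled to counts per 1000000 (CPM); a ratio used a pseudocount of 0.5 UMI, genes were compared at a mean of at least 5 CPM over both groups without rule genes, and called past 2-fold. Named genes were the 15 with the largest ratio in each direction at a mean of at least 20 CPM (10 within the forebrain cells), and genes of the lists. The members, lists and tests were chosen with earlier results of these data known. With 1 library at E8.5 no test was possible and none was made, and the cells are not replicates; intervals (exact Poisson, exact binomial) have a level of 95% and leave out variation between embryos. Doublets were kept; as an alternative the 287 barcodes with the highest Scrublet scores, 2 of them forebrain cells, were removed. Shares called thinned were taken after thinning to 5000 UMIs, and the other shares of cells with a gene at full depth. A level of 0 UMIs was read against a floor of 3 UMIs over a group. Neighbours used scanpy 1.11.5. Scaling by edgeR 4.0.16 (TMM) and DESeq2 1.42.0 size factors were alternatives. Gene coordinates came from the GENCODE annotation of GRCm38, which held 32158 of the 32285 identifiers. The ratio calculation was tested on simulated counts. The other libraries entered only the counts of cells by the same rule, since their dissections lacked the head. All 3 Tbx1null libraries carry Tbx1+/- in their genotype label. A few genes of the lists are not reported here, though list counts and sums include them.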

Additional observations from a re-analysis of the deposited data

How the results depend on the processing

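No paired analysis was possible because the E8.5 cells come from 1 library and no result comes from a test. The rule gave 117 cells with at least 3 of the 5 forebrain genes and 56 after thinning to 5000 UMIs, so membership depends on depth; the other cell filters, doublet removal and keeping Mab21l2 cells without Six3 gave 202 to 238. Against the midbrain cells, 229 genes were higher and 184 lower with cells chosen after thinning, 1596 and 1077 with no minimum level, where higher genes were 59.7% of the calls against 47.4%, and 19 and 29 at a minimum of 20 CPM. Against the hindbrain cells these were 470 and 619, 1284 and 1948, and 59 and 56. Within the forebrain cells, Six3 cells with at least 2 UMIs gave 321 higher and 296 lower genes, and a minimum of 20 CPM, added after seeing the data, 10 and 9. Exoc1 turned to a log2 ratio of -0.0637 with at least 2 Six3 UMIs. The share of forebrain cells with a telencephalon UMI was 40.7% at 3000 UMIs and 86.8% without thinning, against 57.4%. Forebrain cells were 56.0% of 50 neighbours and 42.7% with 10 components. Of 460 values of named genes under the alternatives, 419 moved by less than their counting interval, 40 moved more and 1 reversed. Most of these moves came from settings that changed which cells were compared. With at least 3 of the 5 forebrain genes, 12 of 30 moved more in the midbrain comparison and 3 of 30 in the hindbrain comparison. With cells chosen after thinning these were 11 of 30 and 6 of 30. With at least 2 Six3 UMIs, held by 30 cells, 7 of 20 moved more and 1 reversed. TMM and DESeq2 scaling changed no named gene of the midbrain and hindbrain comparisons by more than its counting interval. Counts with few UMIs, as for the hindbrain cells, limit what a ratio near 2-fold shows. The spread between embryos is not known.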
